A study of Mus musculus with 16 samples.

Results

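The PGC-1 coactivators and the transcription factors that work with them were followed through JG cells transfected with miR-106b. The 10 genes are the coactivators Ppargc1a, Ppargc1b and Pprc1, the peroxisome proliferator-activated receptors Ppara, Pparg and Ppard, the estrogen-related receptors Esrra and Esrrg, and the mitochondrial regulators Nrf1 and Tfam. They are taken by gene symbol, as a group picked with earlier results of these data known, and all 10 were found among the 46078 genes of the count table and among the 14897 genes that passed the filter on low counts. That filter asked for 1 CPM, a count divided by library size, or more in 3 or more of the 4 libraries of 1 group.

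JG cells are the renin-producing juxtaglomerular cells of the kidney, and the cultured cells used here carry YFP driven by the renin promoter (Ren1c-YFP), in control and miR-106b groups alike. They received either miR-106b or a miRNA precursor that is not mammalian, as the control, and were harvested at 48 h. Control and miR-106b cultures each gave 4 libraries of polyA RNA and, from separate dishes, 4 libraries of RNA immunoprecipitated with Ago2 (Ago2-IP), the protein that holds a miRNA and its bound mRNAs. The study asked how the miRNA changes genes that raise renin production, among them Ppargc1a, and which mRNAs it brings to Ago2. The study calls the samples of a group biological replicates, but nothing in it or in the labels describes the cultures as separate isolates of cells. P-values therefore measure only the spread between these samples.

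PGC-1 coactivators do not bind DNA themselves. They dock on transcription factors, among them the PPARs, the estrogen-related receptors and NRF1, and bring the enzymes that open chromatin, and the genes switched on in this way serve fatty acid oxidation and mitochondrial respiration. Tfam, a target of NRF1, packages mitochondrial DNA. Of the coactivators, Ppargc1a and Ppargc1b are known for their high activity in heart, brown fat and other tissues rich in mitochondria.

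The transfected miRNA shares its seed, bases 2 to 8 in capitals below, with 6 other mature miRNAs of the mouse in RefSeq (GRCm38.p6). They are shown because the seed is what would be matched by a direct target among the 10 genes.
mmu-miR-106b-5p: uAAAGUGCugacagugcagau
mmu-miR-93-5p: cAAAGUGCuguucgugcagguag
mmu-miR-17-5p: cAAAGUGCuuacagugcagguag
mmu-miR-20a-5p: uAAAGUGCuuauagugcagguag
mmu-miR-20b-5p: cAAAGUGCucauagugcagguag
mmu-miR-106a-5p: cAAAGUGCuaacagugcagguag
mmu-miR-6383: uAAAGUGCugugucacggaca
mmu-miR-106b-5p lies on the minus strand at chr5:138165787-138165807, and mmu-miR-93-5p lies close by on the same strand at chr5:138165574-138165596.

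A match to bases 2 to 8 (GCACTTT), to bases 2 to 7 before an A (CACTTTA) or to both (GCACTTTA) was looked for in the longest annotated 3′UTR of each gene (GENCODE, release vM21). Of the 10 genes, only Ppara held one, at base 410 of 1561, where the letters GCACTTT lie on the plus strand at chr15:85801668-85801674 of GRCm38. Its surroundings are shown with the match in capitals.
Ppara 3′UTR: aaaactaatctGCACTTTttaacctttga
Of all 13242 tested genes with an annotated 3′UTR, 22.2% held such a match. A match is a description and not a site of binding. The values of Ppara in Ago2-IP RNA are given further on.

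The libraries held between 2579086 and 9459585 counts. Marker genes were checked before the 10 genes were read. No library had a count on Ren1, the gene of renin, which allows up to 0.317 CPM in the library with most counts and 1.16 CPM in that with fewest (an upper limit of 3 counts, for counting error only, since PCR reads are not independent molecules). The 25 genes of a cardiac muscle list, such as Myh6, the main myosin of mouse heart muscle, together took 2.11% to 3.01% of the counts of polyA control and 4.12% to 7.13% of those of polyA miR-106b libraries. In Ago2-IP RNA the shares were 9.54% to 10.2% with the control and 9.28% to 10.2% with miR-106b. In polyA RNA 23 of its 24 tested genes rose with miR-106b, and none fell. Of lists for other cells, 8 of 8 endothelial, 8 of 9 blood and macrophage and 7 of 7 fibroblast genes rose, 6 of 12 juxtaglomerular and mural genes rose and 2 fell, 1 of 3 kidney epithelial genes fell, and 1 of 2 adipocyte genes and 1 of 1 brown adipocyte genes rose. All 8 tested proliferation genes fell, from a summed 448 to 664 CPM with the control to 62.5 to 309 CPM with miR-106b, beside 51.8 to 66.3 CPM in Ago2-IP libraries. The summed kidney epithelial genes were at 305 to 475 CPM in polyA control and 203 to 456 CPM in polyA miR-106b libraries. In Ago2-IP libraries they were at 3.14 to 21.7 CPM with the control and 5.23 to 32.5 CPM with miR-106b. The cause of this difference between RNA kinds was not tested. None of these lists had a gene past the threshold in Ago2-IP RNA. Of the fat cell lists, Adipoq and Ucp1 had at most 0.869 and 0.287 CPM in any library, but Fabp4, a carrier of fatty acids, and Cidea, a lipid droplet protein, had group means of 61.9 to 244 and 7.83 to 32.0 CPM. In polyA RNA Fabp4 rose by 1.25 on the log2 scale (adjusted p = 0.000683) and Cidea by 1.29 (adjusted p = 0.00116), and their part in the results was not tested. In bulk RNA, fewer cells of a type and less RNA per cell cannot be told apart.

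In polyA RNA, 7 of the 10 genes passed the threshold between miR-106b and control (adjusted p under 0.05, edgeR's quasi-likelihood test). Ppargc1a, Ppargc1b, Ppara, Esrra and Esrrg rose and Pprc1 and Nrf1 fell. Pparg, Ppard and Tfam did not pass. Of all genes tested, 40.5% passed, 19.0% higher and 21.5% lower. The lower share depended on which polyA control libraries were kept: the 3198 lower calls were 1834, 1640 and 1707 without polyA control replicate 1, 2 or 3, and 59.9% to 60.3% of all calls were then higher, in place of 47.0%. Without each of these 3 libraries 6 of the 10 genes passed, 5 higher and 1, Pprc1, lower. The same 7 genes had control and miR-106b libraries that did not overlap, as 38.3% of all genes did. For each of them an exact permutation test, two-sided, gave p = 0.0286, the smallest that 4 against 4 libraries allow, and 0.0817 after adjustment over the 20 such tests.

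**Figure D1:**
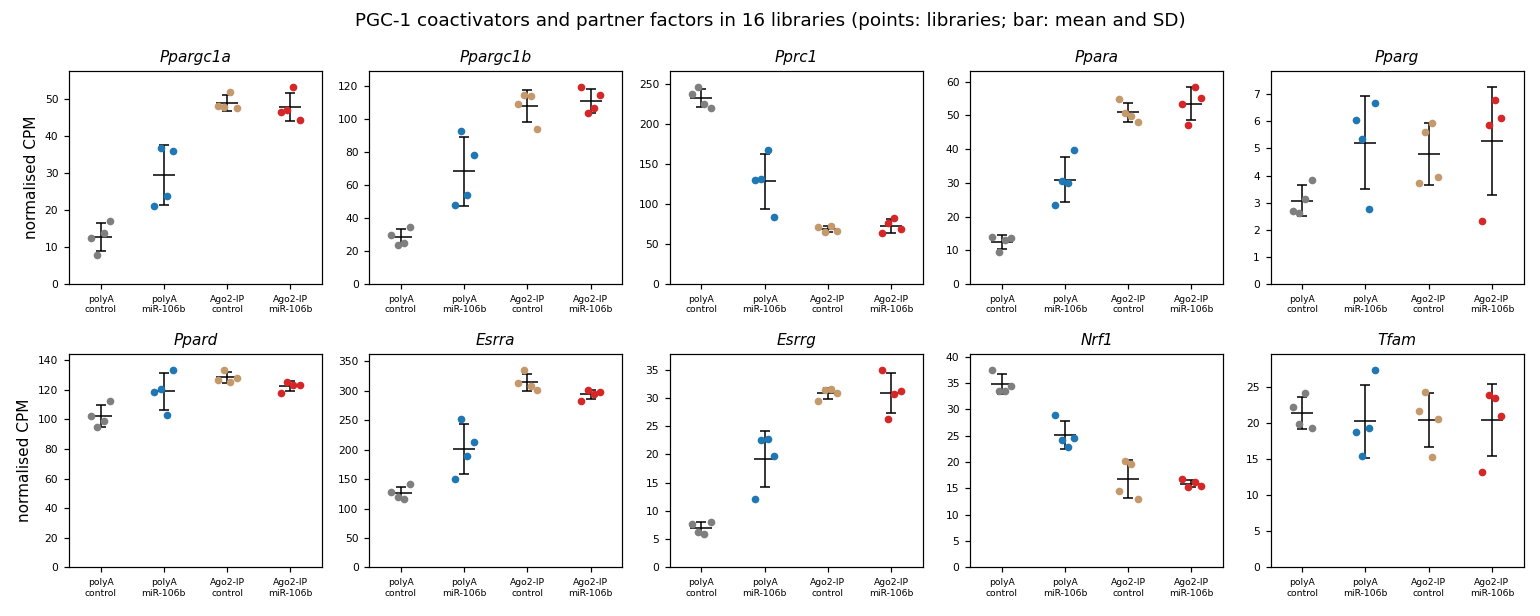
Normalised CPM (y axis, linear from 0; scaled within each RNA kind) of the 10 genes in the 4 libraries of each group (x axis). Points are libraries and bars the mean and SD. For Ppargc1a, Ppargc1b, Ppara, Esrra and Esrrg every polyA miR-106b library lies above every polyA control library, for Pprc1 and Nrf1 every one lies below, and in Ago2-IP RNA the groups overlap for all 10 genes.

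Ppargc1a (ENSMUSG00000029167, chr5:51454250-51567726, minus strand) encodes PGC-1 alpha, the inducible coactivator that responds to cold, fasting and exercise. Its normalised level, in CPM scaled within polyA RNA, was 12.5, 7.77, 13.9 and 17.0 in the control libraries and 21.1, 36.7, 23.7 and 36.0 in the miR-106b libraries. Every miR-106b library stood above the highest control, and the miR-106b libraries fell into a lower and a higher pair, replicates 1 and 3 against 2 and 4. The means were 12.8 ± 3.84 CPM and 29.4 ± 8.12 CPM (SD, n = 4 each), which is 1.21 on the log2 scale (SE 0.246, adjusted p = 0.00225). The summed cardiac list fell into the same pairs of polyA miR-106b libraries, at 41176 and 51587 CPM in replicates 1 and 3 and at 71280 and 69107 CPM in replicates 2 and 4.

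Ppargc1b (ENSMUSG00000033871, on chromosome 18, minus strand) encodes PGC-1 beta, which shares much of the sequence and many targets of PGC-1 alpha. It was at 29.9, 23.8, 25.2 and 34.8 CPM in the polyA control libraries and at 48.2, 92.6, 54.1 and 78.3 CPM in the polyA miR-106b libraries. Here too every miR-106b library was above the controls, with replicates 2 and 4 the highest. The means were 28.4 ± 4.99 and 68.3 ± 20.8 CPM (SD, n = 4 each), a log2 rise of 1.26 (SE 0.202, adjusted p = 0.000724).

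Pprc1 (ENSMUSG00000055491, chr19:46044886-46072915, plus strand) encodes PRC, the coactivator that is induced when resting cells enter growth and that binds NRF1. In polyA RNA it was at 237, 246, 225 and 220 CPM in control and at 129, 131, 168 and 83.8 CPM in miR-106b libraries. The controls lay close together, and every miR-106b library was below them. The means were 232 ± 11.7 and 128 ± 34.4 CPM (SD, n = 4 each), and the fitted log2 fold change was -0.85 (SE 0.165, adjusted p = 0.00166). The summed proliferation genes of the polyA miR-106b libraries were 66.7, 205, 309 and 62.5 CPM, so that replicate 3 was highest and replicate 4 lowest in both. Of the exon bases of Pprc1, 2.82% overlap those of Ldb1 on the other strand, and counting by strand is not given in the sources used here.

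The coactivators were then taken as a sum. Per kb of exon, their summed level in polyA RNA was 46.0 ± 1.21 CPM with the control and 42.0 ± 6.13 CPM with miR-106b, and in Ago2-IP RNA 45.4 ± 2.80 and 46.7 ± 1.20 CPM (SD, n = 4 each). The make-up of that sum differed between the groups. The share of Pprc1, per kb, was 80.3% ± 3.68 in polyA control and 48.8% ± 12.4 in polyA miR-106b libraries, and 24.2% ± 1.35 and 24.8% ± 2.82 in the Ago2-IP groups. That of Ppargc1b went the other way, from 15.5% ± 2.56 to 40.6% ± 9.82 in polyA RNA, with 59.4% ± 2.03 and 59.7% ± 3.72 in Ago2-IP RNA. Ppargc1a had 4.23% ± 1.28 and 10.6% ± 2.71 in polyA RNA, and 16.4% ± 0.782 and 15.5% ± 1.03 in Ago2-IP RNA. The level of Ppargc1b relative to Ppargc1a, per kb, was near the same in every group, at 3.85 ± 0.905 (control) and 3.83 ± 0.245 (miR-106b) in polyA RNA and at 3.64 ± 0.287 (control) and 3.86 ± 0.474 (miR-106b) in Ago2-IP RNA.

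**Figure D2:**
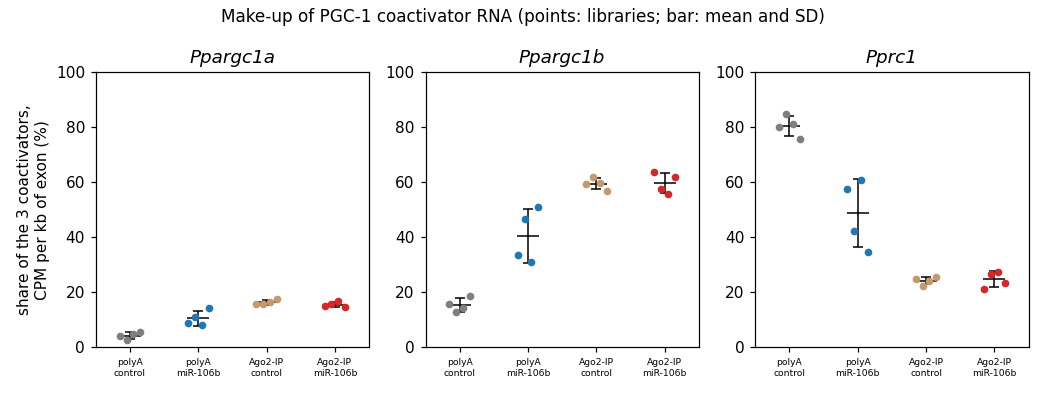
Share (%) of each PGC-1 coactivator in the sum of the 3, from CPM per kb of exon (y axis, 0 to 100), in the 4 libraries of each group (x axis); points are libraries and bars the mean and SD. The share of Pprc1 falls from 75.6% to 84.6% in polyA control to 34.7% to 60.9% in polyA miR-106b libraries and is between 21.4% and 27.4% in all Ago2-IP libraries.

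Among the PPARs, the receptors that bind DNA with RXR and are switched on by fatty acids, Ppara rose in polyA RNA and the other two did not pass the threshold. Ppara (ENSMUSG00000022383, chr15:85734983-85802819, plus strand) is the receptor that drives fatty acid oxidation in liver and heart. It was at 13.9, 9.55, 13.0 and 13.6 CPM in the control and at 23.5, 30.5, 29.8 and 39.7 CPM in the miR-106b libraries of polyA RNA. The groups were well apart, with means of 12.5 ± 2.03 and 30.9 ± 6.66 CPM (SD, n = 4 each) and a log2 rise of 1.30 (SE 0.184, adjusted p = 0.000683). Ppara is also the one gene of the 10 with a seed match, shown above.

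Pparg (ENSMUSG00000000440, chr6:115361221-115490401, plus strand) is the receptor of fat cell formation, and it had the lowest mean level per kb of the 10 genes in both polyA groups. It was at 2.69, 2.62, 3.15 and 3.85 CPM in the control and at 6.05, 5.35, 2.76 and 6.68 CPM in the miR-106b libraries of polyA RNA, from 10 to 27 counts a library. Replicate 3 of miR-106b lay among the controls, and the other libraries of that group lay above them. The log2 fold change of 0.76 (SE 0.300) had an adjusted p of 0.059, which was 0.0114 without polyA miR-106b replicate 3. It was also under the threshold in 5 other alternatives, at 0.0265 to 0.0435.

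Ppard (ENSMUSG00000002250, chr17:28232754-28301469, plus strand), the most widely expressed PPAR, was at 103, 95.2, 98.7 and 112 CPM in the control and at 118, 121, 103 and 133 CPM in the miR-106b libraries of polyA RNA. The groups overlapped, and the log2 fold change of 0.22 (SE 0.109) had an adjusted p of 0.129. It was 0.033 without polyA miR-106b replicate 1, 0.0337 in DESeq2's Wald test and 0.00242 with all 16 libraries in the fit. Per kb, the share of Ppara in the 3 PPARs was 18.2% ± 1.97 in polyA control and 31.3% ± 4.15 in polyA miR-106b libraries, and that of Ppard 76.0% ± 1.99 and 61.9% ± 3.06 (SD, n = 4 each). In Ago2-IP RNA Ppara had 41.5% ± 1.78 in control and 43.5% ± 2.69 in miR-106b libraries. Pparg stayed between 2.60% and 8.55% in all libraries.

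Both estrogen-related receptors, which bind DNA without a known hormone and are main partners of PGC-1 in the control of mitochondrial genes, rose in polyA RNA. Esrra (ENSMUSG00000024955, chr19:6910977-6921813, minus strand) was at 128, 120, 117 and 141 CPM in control and at 151, 253, 190 and 213 CPM in miR-106b libraries. Replicate 1 of miR-106b was only just above the highest control, and the other libraries of that group were well above. The means were 126 ± 10.7 and 202 ± 42.8 CPM (SD, n = 4 each), a log2 rise of 0.67 (SE 0.146, adjusted p = 0.00313). Of its exon bases, 1.66% overlap those of Trmt112 on the other strand.

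Esrrg (ENSMUSG00000026610, chr1:187608791-188214885, plus strand), the receptor typical of heart and other oxidative tissue, had the largest fitted change of the 10 genes. It was at 7.75, 6.19, 5.85 and 8.05 CPM in the control and at 12.1, 22.5, 22.6 and 19.7 CPM in the miR-106b libraries of polyA RNA. The groups did not overlap, and replicate 1 of miR-106b was again the lowest of its group. The log2 fold change was 1.46 (SE 0.221, adjusted p = 0.000683). Per kb, Esrra was at 26.0 ± 2.30 times the level of Esrrg in polyA control and at 15.2 ± 2.41 times in polyA miR-106b libraries. In Ago2-IP RNA it was at 14.5 ± 0.753 times with the control and at 13.7 ± 1.94 times with miR-106b.

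The mitochondrial regulators did not rise. Nrf1 (ENSMUSG00000058440, chr6:30047988-30153458, plus strand), the nuclear factor for genes of respiration and of mitochondrial DNA upkeep, was at 37.5, 33.5, 33.4 and 34.5 CPM in the control and at 28.9, 24.1, 22.9 and 24.5 CPM in the miR-106b libraries of polyA RNA. All miR-106b libraries were below the controls, with a fitted log2 change of -0.46 (SE 0.123, adjusted p = 0.00966). That call was lost without polyA control replicate 1 (adjusted p = 0.0916), 2 (0.0607) or 3 (0.0609), and with all 16 libraries in the fit (0.0528).

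Tfam (ENSMUSG00000003923, chr10:71225464-71238280, minus strand) was at 22.3, 19.9, 24.3 and 19.4 CPM in the control and at 18.8, 15.5, 19.3 and 27.5 CPM in the miR-106b libraries of polyA RNA. The miR-106b libraries lay on both sides of the controls. The fitted log2 change of -0.10 (SE 0.174, adjusted p = 0.68) was smaller than its error and changed sign under other settings.

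RNA bound to Ago2 held no call among the 10 genes: 0 passed the threshold in edgeR's test, and the unadjusted p was under 0.05 for 0 of them. Over all genes the share called was 0%, while 826 genes had an unadjusted p under 0.05, and the number called was 2 in DESeq2's Wald test and 40 when replicate 4 of Ago2-IP miR-106b was left out. None of the 10 genes had groups that did not overlap, where 3.24% of all genes did. Ppargc1a was at 48.2, 47.9, 52.0 and 47.5 CPM (scaled within Ago2-IP RNA) in control and at 46.6, 47.1, 53.3 and 44.3 CPM in miR-106b libraries. The groups ran through each other, with a log2 change of -0.03 (SE 0.0987, adjusted p = 0.993). Ppargc1b was at 109, 114, 114 and 93.9 CPM against 120, 104, 107 and 115 CPM, again with overlap and a log2 change of 0.04 (SE 0.0703, adjusted p = 0.964). Ppara, the gene with the seed match, was at 54.8, 50.7, 49.8 and 48.2 CPM in control and at 53.2, 47.1, 58.5 and 55.1 CPM in miR-106b libraries. Its groups overlapped too, with a log2 change of 0.07 (SE 0.0968, adjusted p = 0.959). The lowest unadjusted p of the 10 genes was that of Esrra, 0.0512 with a log2 change of -0.09 (SE 0.0475, adjusted p = 0.889), from means of 314 ± 15.1 CPM in control and 294 ± 7.92 CPM in miR-106b libraries (SD, n = 4 each). Pprc1 had means of 68.9 ± 3.30 and 72.6 ± 8.48 CPM, Ppard of 128 ± 3.62 and 123 ± 3.36 CPM, Esrrg of 30.8 ± 0.972 and 30.8 ± 3.53 CPM, Nrf1 of 16.8 ± 3.63 and 15.9 ± 0.678 CPM, and Tfam of 20.5 ± 3.77 and 20.4 ± 5.01 CPM (SD, n = 4 each). Their fitted log2 changes were 0.08 (SE 0.0858) for Pprc1, -0.07 (SE 0.0627) for Ppard, -0.0049 (SE 0.1249) for Esrrg, -0.08 (SE 0.172) for Nrf1 and 0.01 (SE 0.162) for Tfam. For Pparg the precision was lowest, since it had 6 to 22 counts a library, and the SE of its log2 fold change of 0.17 was 0.323.

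The change of the Ago2:polyA ratio with miR-106b was tested as an interaction in 1 fit of all 16 libraries. It shares its polyA and Ago2-IP libraries with the comparisons above, and is therefore no separate evidence. Of the 10 genes 7 passed the threshold, 6 lower and 1 higher, where 27.3% of all genes passed, 19.7% lower and 7.61% higher. The log2 change of the ratio was -1.38 for Ppargc1a (adjusted p = 0.000372), -1.37 for Ppargc1b (0.000123), -1.37 for Ppara (3.04e-05), -1.61 for Esrrg (3.27e-05), -0.91 for Esrra (0.000136) and -0.43 for Ppard (0.0106). That of Pprc1 rose by 0.78 (adjusted p = 0.00396). Pparg (-0.74, adjusted p = 0.24), Nrf1 (0.24, adjusted p = 0.44) and Tfam (-0.03, adjusted p = 0.941) did not pass. The call of Ppard was lost without polyA miR-106b replicate 2 (adjusted p = 0.0542), with scaling by library size only (0.0882) and without a filter (0.272). Of all genes called, 27.9% had a higher ratio after TMM scaling and 46.5% after scaling by library size only, which moved the median of all genes from -0.07 to 0.10. The 6 calls other than that of Ppard were kept under both.

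**Figure D3:**
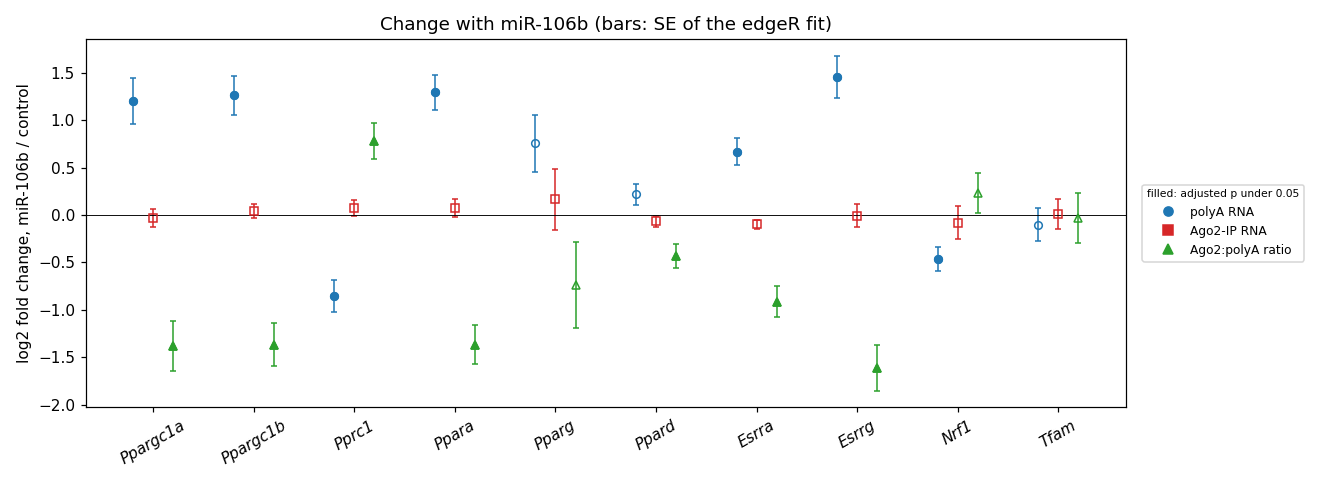
Fitted log2 fold change (y axis) of each gene (x axis) with miR-106b in polyA RNA (circles), in Ago2-IP RNA (squares) and of the Ago2:polyA ratio (triangles); bars are the SE and filled symbols have an adjusted p under 0.05. The polyA changes run from -0.85 for Pprc1 to 1.46 for Esrrg, the Ago2-IP changes lie between -0.09 and 0.17, and the ratio changes run from -1.61 for Esrrg to 0.78 for Pprc1.

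Levels in Ago2-IP RNA relative to polyA RNA, from 2 contrasts of the fit of all 16 libraries, put the genes on both sides of 0. In control cells 9 of 10 genes differed between the RNA kinds, where 69.7% of all genes did, 35.1% higher in Ago2-IP RNA and 34.6% lower. Higher in Ago2-IP RNA were Esrrg (log2 difference 2.46, SE 0.174), Ppara (2.33, SE 0.146), Ppargc1a (2.26, SE 0.188), Ppargc1b (2.23, SE 0.165), Esrra (1.62, SE 0.114), Pparg (0.95, SE 0.316) and Ppard (0.64, SE 0.0865). Lower were Pprc1 (-1.45, SE 0.137) and Nrf1 (-0.74, SE 0.143), and Tfam did not pass (0.24, adjusted p = 0.25). The adjusted p of Pparg, 0.0105, was 0.0701 with scaling by library size only and 0.0537 without a filter. A replicate block gave a log2 difference of 0.20 (adjusted p = 0.777). Its coding takes the difference fitted for replicate 1, so that value does not test the average over replicates. With library size only, 37.9% of the genes called were higher in Ago2-IP RNA, in place of 50.3%, and the median of all genes moved from -0.03 to -0.35. The direction of the other 8 calls held.

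In miR-106b cells 7 of 10 genes differed between the RNA kinds, where 46.4% of all genes did, 21.9% higher and 24.5% lower. Ppara was higher in Ago2-IP RNA by 0.97 (SE 0.143), Ppargc1a by 0.88 (SE 0.185), Ppargc1b by 0.87 (SE 0.160), Esrrg by 0.85 (SE 0.169) and Esrra by 0.71 (SE 0.113). Pprc1 was lower by 0.66 (a log2 difference of -0.66, SE 0.139) and Nrf1 by 0.51 (-0.51, SE 0.154). Ppard (0.21, adjusted p = 0.0592), Pparg (0.21, adjusted p = 0.618) and Tfam (0.20, adjusted p = 0.409) did not pass, and Ppard passed at 0.0266 with DESeq2 size factors, at 0.0143 in DESeq2's Wald test, at 0.0326 with at least 10 counts in every library and at 0.0225 without polyA miR-106b replicate 4. With library size only, 34.0% of all calls were higher, in place of 47.3%.

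The genes were also ordered by level per kb of exon, with all values scaled within each RNA kind. In polyA control libraries Pprc1 came first (36.9 CPM per kb), then Esrra (28.8), Ppard (13.6), Ppargc1b (7.13) and Tfam (4.84), with no overlap of libraries between neighbours. Nrf1 (3.38), Ppara (3.27), Ppargc1a (1.94), Esrrg (1.12) and Pparg (1.04) followed, and each of these overlapped the next. In polyA miR-106b libraries Esrra came first (45.9 CPM per kb), and Pprc1 (20.4), Ppargc1b (17.1) and Ppard (15.8) overlapped each other in turn. Ppara (8.05), Tfam (4.57), Ppargc1a (4.45), Esrrg (3.10), Nrf1 (2.44) and Pparg (1.76) followed with overlap between neighbours. In Ago2-IP control libraries the order was Esrra (71.6 CPM per kb), Ppargc1b (27.0), Ppard (17.1), Ppara (13.3), Pprc1 (10.97), Ppargc1a (7.42), Esrrg (4.96), Tfam (4.62), Nrf1 (1.64) and Pparg (1.62), and only Esrrg and Tfam, and Nrf1 and Pparg, overlapped as neighbours. The Ago2-IP miR-106b libraries had the same order but for the last pair, with overlap also between Ppara (13.9) and Pprc1 (11.6).

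The level of each gene was also set against the summed list within its own library, a measure chosen after the values were seen, in which any scaling cancels. The list itself rose in polyA RNA (median 24928 CPM with the control and 60347 CPM with miR-106b), so a gene that rose less falls on this scale by construction. Of all genes tested, 65.5% had polyA groups that did not overlap on it, 65.4% lower with miR-106b and 0.121% higher, and the median gene was at 0.427 times control. For Ppargc1a the level was 5.05 ± 1.11 CPM per 10000 CPM of cardiac transcripts in polyA control and 4.96 ± 0.116 in polyA miR-106b libraries, and 4.91 ± 0.250 and 4.90 ± 0.439 with the control and miR-106b in Ago2-IP RNA (SD, n = 4 each). Library by library it was 4.63, 3.70, 6.19 and 5.67 in polyA control and 5.01, 5.05, 4.79 and 4.99 in polyA miR-106b RNA. On this scale polyA control and miR-106b libraries of Ppargc1a overlapped, and the miR-106b mean was 0.982 times that of control.

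Ppargc1b had 11.3 ± 0.242, 11.5 ± 0.879, 10.8 ± 0.768 and 11.4 ± 0.748 in the same order of groups. Ppara had 5.01 ± 0.590, 5.33 ± 0.785, 5.10 ± 0.218 and 5.47 ± 0.366, and Esrrg 2.78 ± 0.163, 3.32 ± 0.846, 3.09 ± 0.134 and 3.15 ± 0.351. For all 3 the polyA groups overlapped, with miR-106b means at 1.02, 1.06 and 1.19 times control.

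On this scale Esrra had 50.9 ± 4.83 CPM per 10000 CPM of cardiac transcripts in polyA control and 34.6 ± 3.71 in polyA miR-106b libraries, at 0.680 times control, and 31.5 ± 0.877 and 30.1 ± 1.37 in Ago2-IP RNA. Pprc1 had 94.7 ± 18.6, 23.6 ± 10.5, 6.92 ± 0.375 and 7.43 ± 0.918 in the 4 groups. Ppard, Nrf1, Tfam and Pparg were at 0.511, 0.324, 0.409 and 0.742 times control in polyA RNA. The polyA groups of Esrra, Pprc1, Ppard, Nrf1 and Tfam did not overlap and were lower with miR-106b, which is 5 of the 10 genes beside the 65.4% of all genes, and nothing is read from it. What part cells or RNA of cardiac muscle have in the changes was not tested beyond these values.

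**Figure D4:**
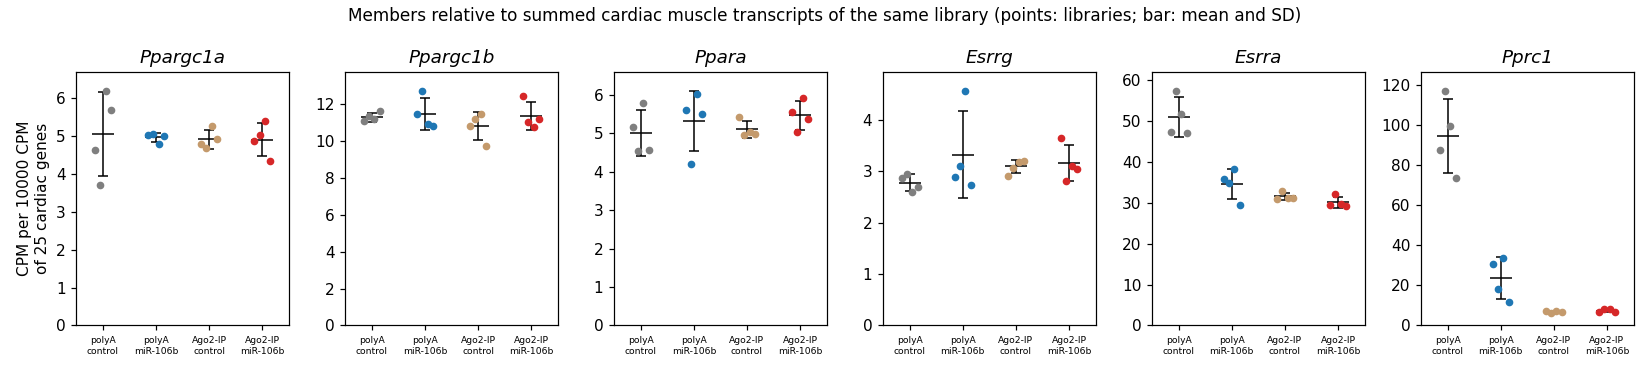
CPM of 6 genes per 10000 CPM of the 25 summed cardiac muscle genes of the same library (y axis, linear from 0) in the 4 libraries of each group (x axis); points are libraries and bars the mean and SD. Ppargc1a, Ppargc1b, Ppara and Esrrg sit at like levels in all 4 groups (means of 4.90 to 5.05, 10.8 to 11.5, 5.01 to 5.47 and 2.78 to 3.32), while Esrra and Pprc1 are highest in polyA control.

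The genes most like each of the 10 in their pattern over the 16 libraries were taken by Pearson's r of log2 CPM, over genes whose mean was 5 CPM or more. These are descriptions, since the 16 libraries fall into groups. Nearest to Ppargc1a were Pik3ap1, Lmod3 and Kdr (r 0.991 to 0.993), nearest to Ppargc1b Sptb, Mhrt and Cd34 (all 0.997), nearest to Ppara Coro1a, Fry and Oas2 (0.994 to 0.995), and nearest to Esrrg Fgd5, Esrrb and Gpihbp1 (0.992). Of these, Kdr, Cd34 and Gpihbp1 are known from endothelium, Lmod3 and Mhrt from muscle, and Coro1a from blood cells. Mhrt lies within the gene of a cardiac myosin on the other strand, so that its reads may come from either. Their polyA log2 fold changes were 1.06 to 1.46, a direction that their choice by likeness over the same libraries fixes.

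Nearest to Pprc1 were Hsd17b12, Pdcd11 and Cd9 (0.991 to 0.993), which had polyA log2 fold changes of -0.95, -0.68 and -1.21. Nearest to Esrra were Ppip5k1, Aldoa and Nceh1 (0.996 to 0.997), nearest to Ppard Zmiz2, Ppp6r1 and Tprgl (0.986 to 0.995), and nearest to Nrf1 Setdb1, Desi1 and Rpl15 (0.947 to 0.972). Pparg had Mgat4a, C1s1 and Tmco1 (0.882 to 0.923). Tfam had no gene as close, with Ngdn, Nudt2 and Ppp2r2d at 0.748 to 0.841.

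The other genes of the pathway were read from 5 lists, whose counts stand against the 19.0% of all tested genes that rose and the 21.5% that fell in polyA RNA, the latter a share that shrank without polyA control replicate 1, 2 or 3. Of 21 tested factors that are bound by PGC-1 or work beside it, 9 rose in polyA RNA, 4 fell and 8 did not pass, with a median log2 fold change of 0.25, where the median of all genes was -0.05. The receptors Thrb, for thyroid hormone (1.48, SE 0.266, adjusted p = 0.00116), and Esrrb, the third estrogen-related receptor (1.46, SE 0.212, adjusted p = 0.000683), had the largest rises, and Gabpb1, a subunit of the respiratory factor NRF2 (-0.88, SE 0.170, adjusted p = 0.00169), and Sp1, a general activator (-0.66, SE 0.144, adjusted p = 0.0031), the largest falls. Of 22 regulators and corepressors, 6 rose, 8 fell and 8 did not pass, with a median of -0.15. The 2 catalytic subunits of AMP-activated kinase, which phosphorylates PGC-1 alpha, moved in opposite directions, with Prkaa2, the subunit typical of muscle, at 1.16 (SE 0.203, adjusted p = 0.00103) and Prkaa1 at -0.87 (SE 0.181, adjusted p = 0.00256). Nr0b2, a receptor that represses others, rose by 1.30 (SE 0.271, adjusted p = 0.00254), and Mybbp1a, which binds and represses PGC-1 alpha, was at -0.996 (SE 0.130, adjusted p = 0.000683).

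Among genes of mitochondrial DNA upkeep, the pathway of Tfam, 0 of 14 rose, 2 fell and 12 did not pass, with a median of 0.01. The falls were those of Primpol, a primase (-0.82, SE 0.267, adjusted p = 0.0259), and Top1mt, a topoisomerase (-0.67, SE 0.201, adjusted p = 0.0186). Tfb2m, the factor that opens mitochondrial promoters, had 0.47 (adjusted p = 0.122), and Mgme1, a nuclease, 0.20 (adjusted p = 0.415).

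Of 25 genes of fatty acid use, many of them targets of PPARs, 23 rose, 1 fell and 1 did not pass, with a median of 1.07. Angptl4, which blocks lipoprotein lipase, rose by 1.34 (SE 0.204, adjusted p = 0.000683) and Ucp3, an uncoupling protein of muscle, by 1.30 (SE 0.192, adjusted p = 0.000683), while Plin2, the coat of lipid droplets in most cells, was at -0.58 (SE 0.117, adjusted p = 0.00225) and Cpt1a, the liver form of the carnitine enzyme, at -0.16 (adjusted p = 0.247). Of 19 tested genes of respiration and the citric acid cycle, 18 rose and 1 fell, with a median of 0.79. The rises ran from Mdh2 (0.42, SE 0.132, adjusted p = 0.0229) to Sdhb (1.07, SE 0.175, adjusted p = 0.000785) and Cox7a1, the heart and muscle form of its subunit (1.21, SE 0.185, adjusted p = 0.000683), and Tomm20, of the protein import complex, was at -0.47 (SE 0.126, adjusted p = 0.0101). The summed fatty acid genes of polyA RNA were at 3074 to 3934 CPM with the control and 5082 to 8272 CPM with miR-106b, and at 10008 to 11133 CPM in Ago2-IP RNA, an order that the cardiac list has too. No list held a call in Ago2-IP RNA, where 0 genes passed the threshold in edgeR's test.

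**Figure D5:**
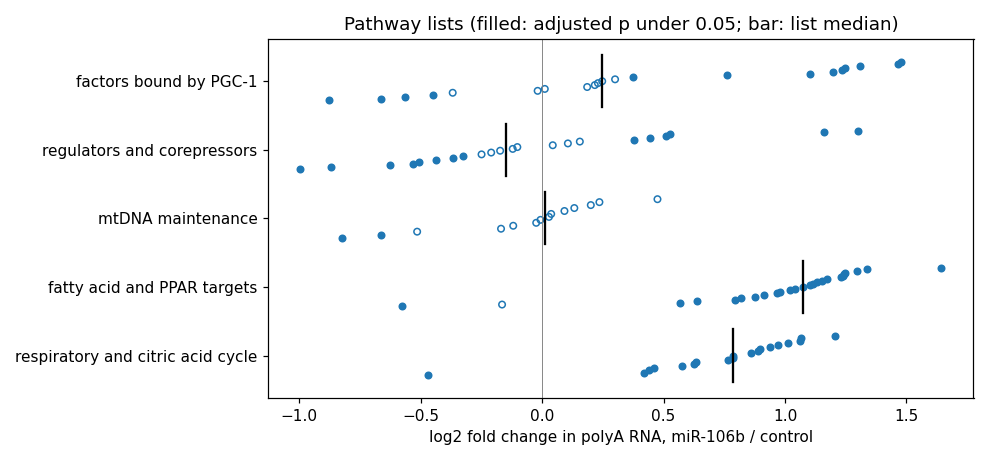
Log2 fold change with miR-106b in polyA RNA (x axis) of each tested gene of 5 pathway lists (rows); filled points have an adjusted p under 0.05 and the bar is the median of the list. The medians are 0.25, -0.15, 0.01, 1.07 and 0.79 from top to bottom.

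The promoters of 9 of the 10 genes are in the RefSeq table used here (GRCm38.p6), as 15 windows from 250 bases before to 50 after a start. They were searched on both strands for the CRE (TGACGTCA, bound by CREB), for a site of NRF1 (CGCATGCG), for the site of estrogen-related receptors (TNAAGGTCA), for E2F sites (TTTGGCGC, TTTCCCGC, TTTGCCGC or TTTCGCGC) and for the nuclear receptor element AGGTCA, which is part of TNAAGGTCA. Of 32851 windows in the table, 1.79% held the CRE, 1.87% the NRF1 letters, 1.28% the estrogen-related receptor site, 2.26% an E2F site and 16.3% AGGTCA. The NRF1 letters lay in a window of Ppara, from 30 bases before the start, and AGGTCA in Pprc1 and in 2 windows of Pparg. The other letters were in none of the 15 windows. The match of Ppara is shown with the NRF1 letters in capitals, since it joins 2 of the 10 genes, at chr15:85735736-85735763 on the plus strand.
Ppara promoter: ggctcggtggCGCATGCGcgcggactag
Ppara rose and Nrf1 fell in polyA RNA, and a match of letters shows no binding.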

How the data were processed

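PolyA and Ago2-IP RNA of JG cells was sequenced in 16 libraries, 4 a group. The authors aligned reads to GRCm38 with TopHat2 and counted them on genes with HTSeq, and the deposited values are raw counts per gene. The TopHat2 version is 2.0.10 per the labels, and the paper names another. Groups were taken from the labels. Counts were scaled by TMM and tested with edgeR 4.0.16 in R 4.3.3 (two-sided quasi-likelihood F test, robust dispersion, Benjamini-Hochberg over 14897 genes, threshold 0.05, prior count 0.125), with DESeq2 1.42.0 as an alternative. Each RNA kind was fitted alone, and the Ago2:polyA ratio and the contrasts of RNA kinds in 1 fit of all 16 libraries. Printed CPM of the coactivators and of the transcription factors that work with them carry TMM factors of their own RNA kind. Printed CPM of single genes named from the marker lists, and sums over marker or pathway lists, are per library size. Adjusted p-values come from edgeR's test unless another is named. The SE of a log2 fold change is its absolute value divided by the square root of that test's F, and no direct output. Exon lengths and 3′UTRs are those of GENCODE vM21. Gene starts in the table count from 0 and were raised by 1. Tests were checked on simulated counts.

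The 10 genes and the gene lists were chosen with earlier results of these data known. Named genes are the 10, the 3 most like each, and the 2 highest and 2 lowest of each pathway list with a mean of at least 5 CPM in polyA RNA. Outside this rule, Ren1, Myh6, Adipoq, Ucp1, Fabp4 and Cidea were named from the marker lists, and Ldb1 and Trmt112 for their exon overlap. No 2 libraries of the same group agreed within sampling noise. Median depth of the polyA libraries was 6450099 counts with the control and 3645937.5 with miR-106b, and of the Ago2-IP libraries 3638859.5 and 3264121.5. Alternatives were other size factors, filters, tests, a prior count of 2, a replicate block, all 16 libraries in the polyA or Ago2-IP fit, and leaving out each library.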

Additional observations from a re-analysis of the deposited data

Results flagged for a closer look

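Of 40 sets of 4 libraries (10 genes in 4 groups), 1 held a library far from the others, where chance gives about 1 in 20. Ppargc1a was at 52.0 CPM in Ago2-IP control replicate 3, against 47.5 to 48.2 CPM in the other libraries of that group.

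The effect of miR-106b in Ago2-IP RNA differed from that in polyA RNA for 7 of the 10 genes (interaction in edgeR's quasi-likelihood test), as for 27.3% of all genes tested, 19.7% lower and 7.61% higher. The difference on the log2 scale, Ago2-IP less polyA, was -1.38 for Ppargc1a, -1.37 for Ppargc1b, -1.37 for Ppara, -1.61 for Esrrg, -0.91 for Esrra, -0.43 for Ppard and 0.78 for Pprc1. The summed cardiac list moved in the same libraries (41176 to 71280 CPM in polyA miR-106b against 21147 to 30060 CPM in polyA control), and its part was not tested.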

How the results depend on the processing

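Depth limits Pparg most, with 6 to 27 counts a library, and the SEs given for the changes bound what could be seen in Ago2-IP RNA. The number of the 10 genes called ran from 6 to 9 in polyA RNA over all alternatives, was 0 in each for Ago2-IP RNA, and was 6 or 7 for the ratio, 8 or 9 for Ago2-IP against polyA RNA in control cells and 7 or 8 with miR-106b. Ppargc1a, Ppargc1b, Pprc1, Ppara, Esrra and Esrrg kept call and direction in polyA RNA and in the ratio under all of them. With all 16 libraries in 1 fit, 61.4% of the genes called in polyA RNA were higher, against 47.0% in the fit of polyA libraries alone. The causes of the changes below were not tested. With at least 10 counts asked of every library, Pparg was tested in polyA RNA only.

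The count of genes called in Ago2-IP RNA, 0 in edgeR's quasi-likelihood test, was 20 without a filter, 2 with at least 10 counts in every library, 1 with the replicate block, 2 in DESeq2's Wald test, 4 in the likelihood ratio test and 0 to 40 with 1 library left out (40 when replicate 4 of miR-106b was left out, 8 for replicate 4 of the control and 4 for replicate 1 of miR-106b).

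Replicate numbers gave no steady sign of pairing: deviations of same-numbered control and miR-106b libraries of an RNA kind correlated at -0.486 to 0.380. Same-numbered polyA and Ago2-IP libraries were not compared in this way. For Ago2-IP against polyA RNA, the block was coded so that the difference is the one fitted for replicate 1. It is no average over the replicates, and so no check of the difference without the block. With the replicate block, 4330 genes differed between Ago2-IP and polyA RNA in miR-106b cells, against 6912 without it. In that comparison the block gave log2 differences of -0.56 for Pparg and -0.015 for Tfam, and in Ago2-IP RNA a log2 change of -0.0023 for Tfam. In control cells Pparg differed between RNA kinds by 0.20 with the block (adjusted p = 0.777), and the block changed no other call of the 10 genes.

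Changes of sign touched values that were not called. For Tfam in polyA RNA the log2 change was 0.024 with all 16 libraries, and -0.26 to 0.049 with 1 library left out. For Tfam in Ago2-IP RNA it was -0.0028 without a filter, -0.010 with all 16 libraries, and -0.10 to 0.16 with 1 left out. The ratio change of Tfam was 0.015 with DESeq2 size factors, 0.13 with library size only, 0.11 without a filter, 0.012 with at least 10 counts in every library, 0.016 in DESeq2's Wald test and -0.15 to 0.12 with 1 left out, and its difference between RNA kinds in control cells was -0.082 with library size only. In Ago2-IP RNA Esrrg had 0.0044 with at least 10 counts in every library. With 1 library left out, Esrrg ran from -0.066 to 0.065, Ppargc1a from -0.088 to 0.0050, Ppargc1b from -0.018 to 0.078 and Nrf1 from -0.19 to 0.015, and the difference of Pparg between RNA kinds with miR-106b from -0.0015 to 0.43.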
